A study of Mus musculus with 14 samples.

Results

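The genes described are 10 of the 35271 in the deposited table and were taken by symbol: the intermediate filament proteins desmin (Des), vimentin (Vim), nestin (Nes) and synemin (Synm), the nuclear lamins Lmna, Lmnb1 and Lmnb2, the plakin linkers plectin (Plec) and dystonin (Dst), and the small heat shock protein alpha-B-crystallin (Cryab). All 10 were found, and 9 were above 0 in some cell. Their levels were measured by RNA-seq in 14 single mesangial cells, the contractile support cells between the capillaries of the kidney glomerulus. The cells came from the glomeruli of 1 wild-type male C57BL/6 mouse of 8 weeks, which were isolated magnetically and digested, and single cells were lysed and turned into cDNA in the chambers of a Fluidigm C1 instrument. No treatment, transgene or second genotype is given in the labels. The cells form 1 group, are named GL_M with a number, and come from 1 animal, so every value describes these cells and no test between groups was made. Levels are given as RPKM, in which reads are divided by gene length and by the read total of the cell.

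Intermediate filaments are rope-like polymers that give cells mechanical strength. Vimentin and desmin form filaments in the cytoplasm of mesenchymal and contractile cells, and desmin has long been used in rodents as a marker of the mesangium. Nestin and synemin do not build filaments by themselves but join those of vimentin or desmin, plakins tie filaments to actin, microtubules and adhesion sites, and alpha-B-crystallin is a chaperone that binds desmin. Lamins are the nuclear members of the family. Lmna encodes lamins A and C, and Lmnb1 and Lmnb2 encode the B-type lamins.

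Depth and identity of the cells bear on all values. Read totals recovered from the steps of the RPKM values ran from 6.60 M to 23.8 M per cell, and 1770 to 5277 genes reached an RPKM of 1. Of 8 mesangial markers (desmin left out), 7 reached 10 RPKM in 7 cells or more. That compares with 3.08% of all genes and 7.18% of those above 0 in some cell. Each cell had 6 or 7 of the 8 at 10 or more, while Tbx18 was at 0 throughout. The list was chosen with earlier results of these data known, so its counts do not test what the cells are. The summed mesangial level was 6709 to 22683 RPKM. Against this the 13 endothelial markers summed to 8.34 to 4129 RPKM, highest in GL_M_30, where 10 were at 10 or more. Their median sum over the cells was 899 RPKM. Of the 13, 3 were at 10 or more in at least 7 cells, namely Ehd3 and Eng in 11 each and Plvap in 8. The 12 podocyte markers summed to 0.427 to 2178 RPKM, highest in GL_M_55, where 5 were at 10 or more. None of the 12 was at 10 or more in at least 7 cells, and Synpo came closest with 6. The 7 smooth muscle markers reached 108.6 RPKM in sum, with Smtn at 10 or more in 5 cells. The 7 leukocyte markers reached 926 in GL_M_85, nearly all from Fcer1g. The 6 fibroblast markers reached 551 in GL_M_55, nearly all from Pdgfra, which was at 10 or more in 7 cells. The 5 parietal epithelial markers summed to at most 3.88 and the 5 tubule markers to at most 0.0232. Of these tubule genes 4 were at 0 in every cell, as were 57.1% of all genes.

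The main pattern concerned Vim, Des and Lmna. Vim and Lmna were strong in some cells and at or near 0 in others. Des was at 1 RPKM or more in 13 cells and was graded among the lower ones. The 250 bases before a RefSeq start of each of these 3 genes (GRCm38.p6) are shown side by side. Capitals mark matches on either strand to TATAAA, to CCAAT and to the GC box GGGCGG. The windows also were searched on both strands for TGANTCA and for the CArG box, and no match to these letters was found in the 3 windows. No matches of different motifs overlapped.
Des, chr1:75360042-75360291, plus strand: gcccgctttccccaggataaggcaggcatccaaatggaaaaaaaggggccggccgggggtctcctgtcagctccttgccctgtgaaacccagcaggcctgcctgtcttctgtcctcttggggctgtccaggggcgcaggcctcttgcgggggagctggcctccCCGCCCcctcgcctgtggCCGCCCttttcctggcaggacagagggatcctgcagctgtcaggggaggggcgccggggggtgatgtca
Vim, chr2:13574061-13574310, plus strand: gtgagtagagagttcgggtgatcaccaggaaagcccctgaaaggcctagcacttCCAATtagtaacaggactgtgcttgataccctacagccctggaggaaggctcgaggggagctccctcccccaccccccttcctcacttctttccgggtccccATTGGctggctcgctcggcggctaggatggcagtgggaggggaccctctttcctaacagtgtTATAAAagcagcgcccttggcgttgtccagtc
Lmna, chr3:88503353-88503602, minus strand: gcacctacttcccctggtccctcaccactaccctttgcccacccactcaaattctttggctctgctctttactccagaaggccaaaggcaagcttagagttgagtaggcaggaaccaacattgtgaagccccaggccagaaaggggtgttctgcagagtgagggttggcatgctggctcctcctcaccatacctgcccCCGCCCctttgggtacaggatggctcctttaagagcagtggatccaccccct

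The Vim window held TATAAA from -32 to -27 relative to the start and a CCAAT match on each strand, at -196 to -192 and at -94 to -90. The Des window held GGGCGG on the opposite strand at -87 to -82 and at -69 to -64 and was the richest in G and C of the 3, at 67.2% against 58.4% for Vim and 56.4% for Lmna. The Lmna window held GGGCGG on the opposite strand at -52 to -47. Of 32851 such windows, 12.4% held TATAAA, 33.8% CCAAT, 32.7% GGGCGG, 6.75% TGANTCA and 1.47% a CArG box, and their median GC content was 52.4%. In GENCODE M21 other transcripts of Vim and Lmna begin upstream of these windows, and RefSeq lists another start of Lmna, whose window is not shown. The matches are letters in the reference, and no measurement of binding was made.

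Of the 10 genes, 6 reached 10 RPKM in some cell, where 22.3% of all 35271 genes and 52.0% of the 15121 genes above 0 in some cell were. Against the second share the count of 6 does not stand out. In at least 7 of 14 cells 3 of the 10 were at 10 or more (Vim, Des and Lmna), where 3.08% of all genes and 7.18% of those above 0 in some cell were. None of the 10 was at 10 or more in all 14 cells, as were 6.63% of the 1086 genes that reached 10 in at least 7 cells. Ordered by median RPKM, Lmna came first at 200.8, then Vim at 66.0, Des at 18.3, Cryab at 0.453, Nes at 0.0172, Dst at 0.0162 and Plec at 0.00602, with Synm, Lmnb1 and Lmnb2 at 0. The ranges of neighbours in this order overlapped throughout, and without GL_M_30 and GL_M_55 the first 3 became Des (103.1), Vim (69.2) and Lmna (47.3). No cell had Lmna between 1.20 and 93.3 RPKM or Des between 25.0 and 181, so both medians depended on how many cells were high. The median over the 10 genes of these medians was 0.0167, against 0 over all genes.

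**Figure D1:**
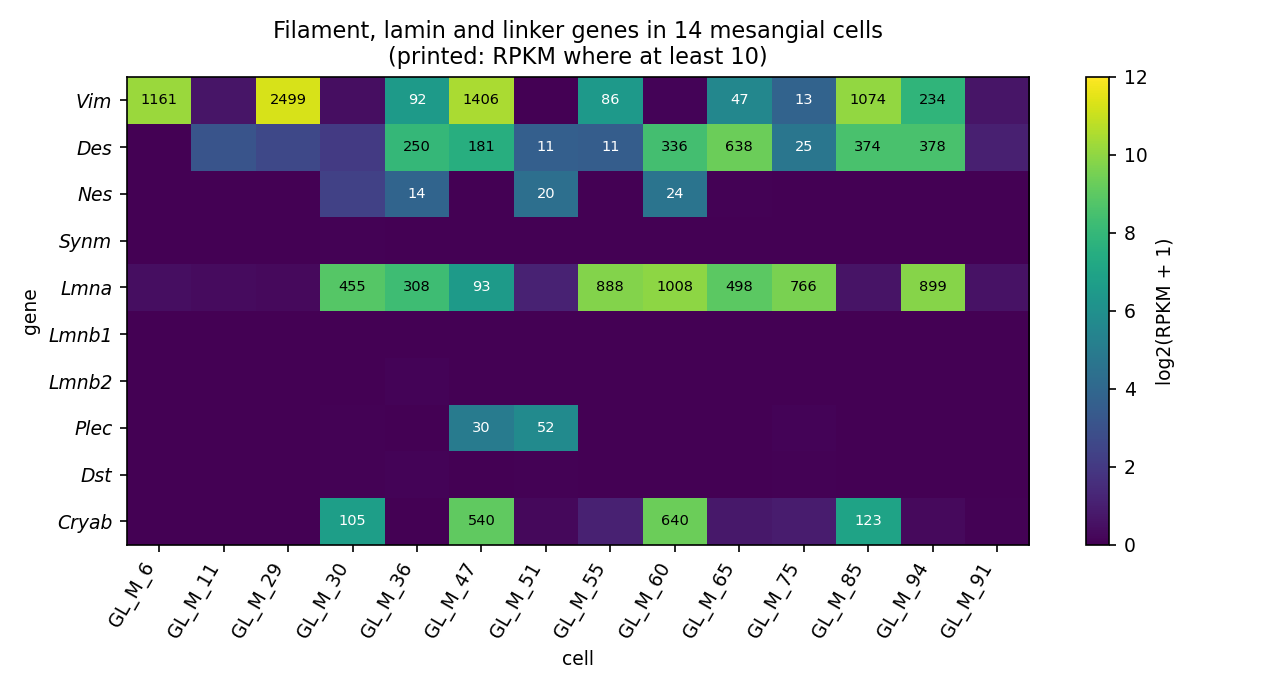
Colour gives log2(RPKM + 1) of each gene (down) in each cell (across), with the RPKM printed where it is at least 10. Vim, Des and Lmna fill most cells but in different combinations, and the GL_M_11 and GL_M_91 columns hold no printed value.

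Vim (chromosome 2, 13573927 to 13582826, plus strand) split the cells cleanly. It was at 13.1 RPKM or more in 9 cells (64.3%, exact 95% interval 35.1% to 87.2%, for the sampling of 14 cells only) and below 1 in the other 5. The 4 highest cells were GL_M_29 at 2499, GL_M_47 at 1406, GL_M_6 at 1161 and GL_M_85 at 1074 RPKM. GL_M_94 followed at 233.6, GL_M_36 at 92.0, GL_M_55 at 85.5, GL_M_65 at 46.5 and GL_M_75 at 13.1. Among cells that carried vimentin the level thus spanned 191-fold. In the low cells it was at 0.604 in GL_M_11, 0.602 in GL_M_91, 0.381 in GL_M_30, 0.0815 in GL_M_60 and 0 in GL_M_51. Counted as reads, which hold up to a common whole factor, these low values were 5, 11, 5, 2 and 0, against 89 reads in GL_M_75 and 23796 in GL_M_29. No value lay between 0.604 and 13.1 RPKM. The highest of the low cells stood at 0.0242% of the highest cell. Of the low cells, GL_M_60, GL_M_51 and GL_M_91 had the 3 highest read totals, at 23.8 M, 19.0 M and 17.7 M, and the fewest genes at 1 RPKM or more, 1770, 1894 and 1810. GL_M_30 had 12.7 M reads and 3082 genes, and GL_M_11 8.04 M reads and 2846 genes. The part of depth or gene number in the low values was not tested.

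Des (chromosome 1, 75360329 to 75368579, plus strand) was graded among its lower cells, with a gap between 25.0 and 181 RPKM above them. In RPKM it was at 638 in GL_M_65, 377.7 in GL_M_94, 374.5 in GL_M_85, 335.8 in GL_M_60, 249.8 in GL_M_36 and 181 in GL_M_47. Lower levels of 25.0 in GL_M_75, 11.5 in GL_M_51, 10.5 in GL_M_55, 7.71 in GL_M_11, 5.10 in GL_M_29, 3.09 in GL_M_30 and 1.06 in GL_M_91 formed a run below the gap, down to 0 in GL_M_6. The limit of 10 RPKM therefore cut through a run of cells of like level, with GL_M_55 just above it and GL_M_11 just below. These intermediate values rested on more reads than the low values of Vim, namely 124 reads in GL_M_55, 96 in GL_M_11, 73 in GL_M_29, 61 in GL_M_30 and 29 in GL_M_91. The SD of log2(RPKM + 1) over the cells was 3.20 for Des and 4.31 for Vim. Genes with a mean log2(RPKM + 1) within 0.5 of theirs had a median SD of 3.56 around Des and 3.58 around Vim. The annotated antisense gene Gm15179 overlaps 5.86% of the exon bases of Des, and no strand setting is stated in the labels.

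**Figure D2:**
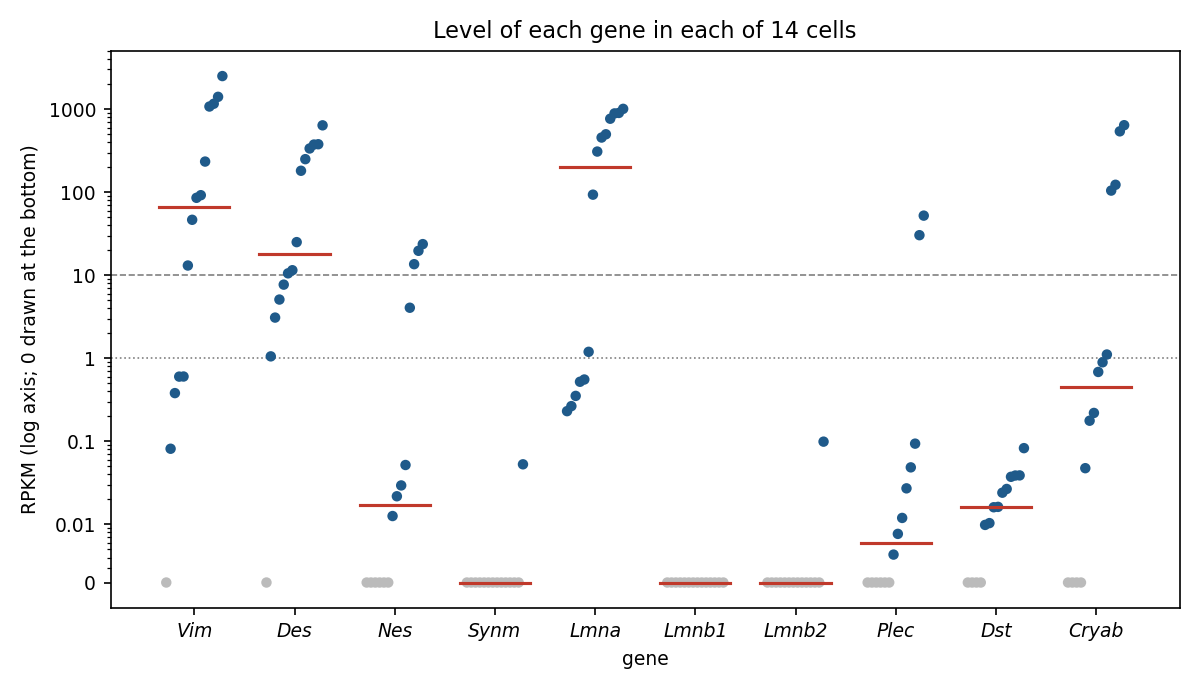
Each point is the RPKM of a gene in a cell on a log axis, with 0 drawn in grey at the bottom, a red bar at the median, and lines at 1 and 10. Vim, Lmna and Cryab leave a gap between low and high cells, and Synm, Lmnb1, Lmnb2 and Dst stay below 0.1. Des values above 0 run from 1.06 to 638, with none between 25.0 and 181.

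The same cells did not always carry both filament genes. Vim and Des were both at 10 or more in 7 cells. At that limit Vim was alone in GL_M_6 and GL_M_29, and Des alone in GL_M_51 and GL_M_60. Neither reached it in GL_M_11, GL_M_30 and GL_M_91. At the lower limit of 1 RPKM Vim was detected in 9 cells and Des in 13. The cells with Des between these limits were GL_M_29, GL_M_11, GL_M_30 and GL_M_91. On the log2(RPKM + 1) scale Vim minus Des was 10.18 in GL_M_6 and 8.68 in GL_M_29, whose cytoplasmic filament transcripts were nearly all vimentin. It was -8.28 in GL_M_60, where desmin prevailed, and the median over the cells was -0.79. Over the 14 cells the correlation of Vim and Des on that scale was r = 0.19, a weak relation. In GL_M_30, which had the highest endothelial markers, Vim was at 0.381 and Des at 3.09 RPKM. In GL_M_55, which had the highest podocyte markers, Vim was at 85.5 and Des at 10.5. In GL_M_85, which had the highest leukocyte markers through Fcer1g, Vim was at 1074 and Des at 374.5. The part of these marker transcripts in the filament levels was not tested.

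Nestin and synemin, the partners that join these filaments, were weak. Nes (chromosome 3, 87971078 to 87980451, plus strand) was at 23.7 RPKM in GL_M_60, 19.7 in GL_M_51, 13.6 in GL_M_36 and 4.06 in GL_M_30, and at most 0.0520 elsewhere. The 4 cells with nestin had 2519, 1674, 814 and 231 reads of it, and the other 10 had 0 to 2. Nestin is known from podocytes as well as from progenitor cells. In GL_M_55, where podocyte markers were highest, Nes was at 0.0295, which is 1 read, and the part of podocyte transcripts was not tested. Of the 4 cells, 3 lacked Vim at 10 or more and 3 carried Lmna. Synm (chromosome 7, 67730160 to 67759742, minus strand) was at 0.0530 RPKM in GL_M_30 and at 0 in the other 13 cells, where 3 reads at the mean transcript length would have given 0.0249 to 0.0898 RPKM.

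The lamins differed by type. Lmna (chromosome 3, 88480147 to 88509956, minus strand) was the only gene of the 10 above 0 in every cell, with a mean log2(RPKM + 1) of 5.38 ± 4.40 (SD, n = 14 cells of 1 mouse), and it split the cells as Vim did. It was at 1008 RPKM in GL_M_60, 899 in GL_M_94, 888 in GL_M_55, 766 in GL_M_75, 498 in GL_M_65, 455 in GL_M_30, 308 in GL_M_36 and 93.3 in GL_M_47. The other 6 cells had 0.231 in GL_M_29, 0.266 in GL_M_11, 0.353 in GL_M_6, 0.522 in GL_M_91, 0.556 in GL_M_85 and 1.20 in GL_M_51. In reads the low cells had 3 to 32 and the high cells 1641 to 33682. The 8 high cells (57.1%, exact 95% interval 28.9% to 82.3%) lay within 10.8-fold of each other, a narrower range than that of Vim. The SD of 4.40 compares with a median of 3.55 for genes with a mean within 0.5 of it. Since values are summed over the gene, lamin A and lamin C cannot be told apart.

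B-type lamins, which most cell types carry, were hardly seen. Lmnb1 (chromosome 18, 56707813 to 56753424, plus strand) was at 0 in all 14 cells, as were 57.1% of all genes. Zero of 14 leaves room for up to 23.2% of cells with a detected transcript, and 3 reads would have given 0.0720 to 0.260 RPKM. Lmnb2 (chromosome 10, 80901203 to 80918245, minus strand) was at 0.0993 RPKM in GL_M_36 and at 0 in the other 13. The listed value of Lmna was above the listed sum of both B-type lamins in every cell, but in GL_M_29, GL_M_11 and GL_M_6 it rested on 3 or 4 reads, near the floor of 3. The difference in log2(RPKM + 1) had a median of 7.35 and ran from 0.30 in GL_M_29 to 9.98 in GL_M_60. The median was 3.85 without GL_M_30 and GL_M_55 and 10.23 with a pseudocount of 0.1. B-type lamin transcripts were thus not seen in most cells, which is not the same as absent, and the part of depth was not tested.

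Lmna and Vim were both at 10 or more in 6 cells, Vim alone in 3 (GL_M_6, GL_M_29 and GL_M_85), Lmna alone in GL_M_30 and GL_M_60, and neither in GL_M_11, GL_M_51 and GL_M_91. The correlation over 14 cells was weak (r = -0.12). The high end of Vim showed an order that was noticed after the values were known. Its 4 cells above 1000 RPKM had Lmna at 0.231 (GL_M_29), 93.3 (GL_M_47), 0.353 (GL_M_6) and 0.556 RPKM (GL_M_85). The 5 cells with Vim from 13.1 to 233.6 had Lmna from 308 to 899 RPKM. The cells without Vim did not continue this order, since Lmna was at 1008 in GL_M_60 and 455 in GL_M_30 but at most 1.20 in GL_M_11, GL_M_51 and GL_M_91. Lmna and Des were closer (r = 0.52), with 7 cells at 10 or more for both, Lmna alone in GL_M_30, Des alone in GL_M_51 and GL_M_85, and neither in 4. These coefficients describe 14 cells of 1 animal.

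**Figure D3:**
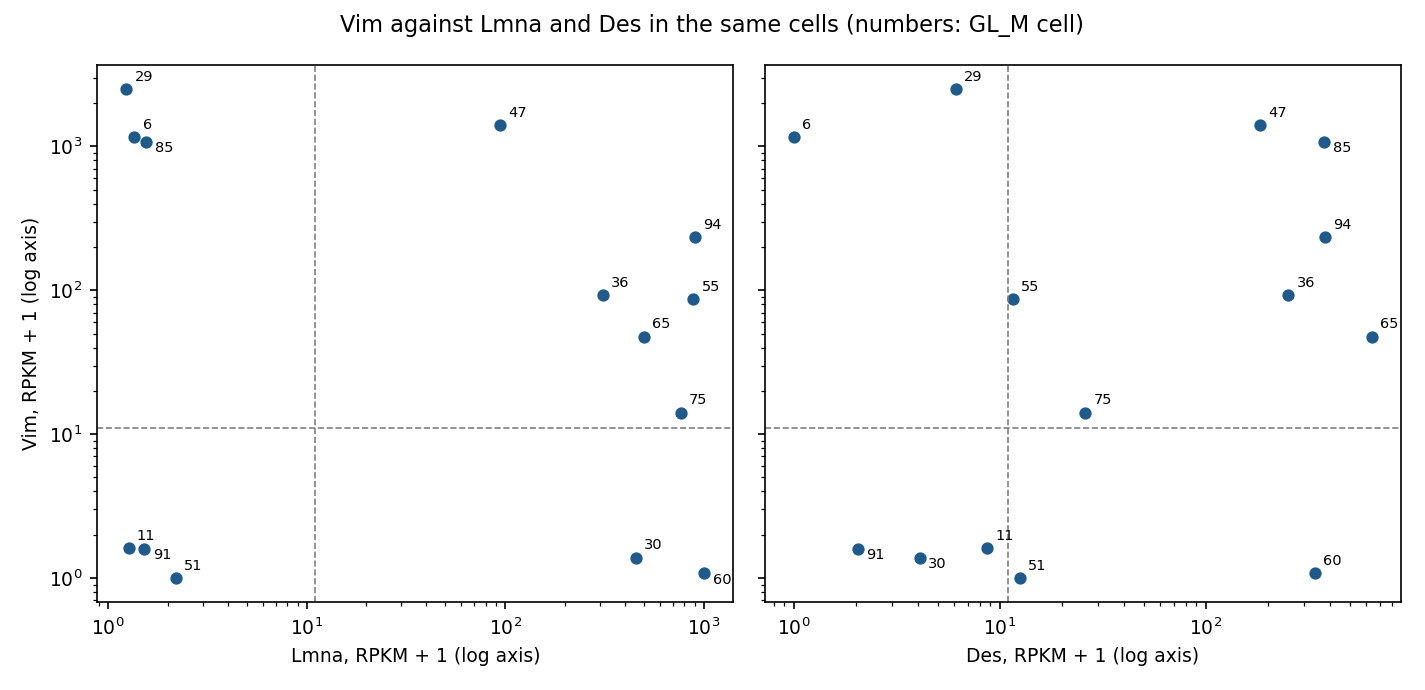
Vim against Lmna (left) and Des (right), as RPKM + 1 on log axes, for the 14 cells marked by number, with dashed lines at an RPKM of 10. The 4 cells with Vim above 1000 lie at Lmna values of 0.231 to 93.3, and no cell has Vim between 0.604 and 13.1.

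The plakin linkers differed, with Plec at 10 RPKM or more in 2 cells and Dst below 0.1 in all. Plec (chromosome 15, 76170974 to 76232574, minus strand) was at 52.2 RPKM in GL_M_51 and 30.4 in GL_M_47 and at most 0.0939 elsewhere, which is 9622 and 3680 reads against at most 6. Neither cell stood out by the other members in the same way, since GL_M_47 had high Vim and GL_M_51 none. Dst (chromosome 1, 33908225 to 34308661, plus strand) reached 0.0829 RPKM (9 reads) in GL_M_36 and was above 0 in 10 cells with 1 to 9 reads. Among the other plakins Macf1, which links actin and microtubules and has a coding transcript of 23495 bases against 23279 in Dst, reached 10 RPKM in 7 cells, with 11.04 as its median and 187 RPKM in GL_M_51 as its highest value. Syne1, a nuclear envelope gene with a coding transcript of 27908 bases, reached 10 RPKM in 10 cells. Both transcripts are at least as long as that of Dst, and the part of transcript length in these levels was not tested. Dsp, Ppl and Evpl, the plakins of desmosomes, stayed below 10 in all cells with a highest value of 0.0793 RPKM. Of all genes, 22.3% reached 10 in some cell. No entry under the symbol Eppk1 was found.

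Cryab (chromosome 9, 50751325 to 50756636, plus strand) was strong in 4 cells (28.6%, exact 95% interval 8.39% to 58.1%). It was at 640 RPKM in GL_M_60, 540 in GL_M_47, 122.8 in GL_M_85 and 104.5 in GL_M_30. In the other 10 cells it was at most 1.11, from 10 reads or fewer, and at 0 in 4. The 4 cells had 18072, 8013, 1493 and 1578 reads. All 4 carried Vim or Lmna but in different combinations: Lmna in GL_M_60 and GL_M_30, both in GL_M_47, and Vim in GL_M_85. Of all 14 cells only 3 had neither at 10 or more, so this does not set the 4 apart. Desmin, the filament that alpha-B-crystallin binds, was at 335.8, 181, 374.5 and 3.09 RPKM in these 4 cells, and its correlation with Cryab over 14 cells was r = 0.38. Of the exon bases of Cryab, 17.0% overlap the opposite gene Hspb2, which was at 0 in every cell. Like Vim and Lmna, Cryab was at 10 or more in at least 4 cells and below 1 in at least 4, as were 12.2% of genes above 0 in some cell.

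Counted by cell, GL_M_47 had 5 of the 10 genes at 10 or more (Vim, Des, Lmna, Plec and Cryab), GL_M_36 and GL_M_60 had 4, and the median was 3. GL_M_11 and GL_M_91 had none. Of all 35271 genes, 3100 were at 10 or more in GL_M_47, 3345 in GL_M_36 and 1272 in GL_M_60. In GL_M_11 and GL_M_91 the numbers were 1768 and 1268. GL_M_91 was deep at 17.7 M reads with 1810 genes at 1 or more, whereas GL_M_11 had 8.04 M reads and 2846 genes. GL_M_36 and GL_M_47 had the most genes at 1 or more, 5277 and 4842, and GL_M_60 the fewest, 1770. The part of the number of genes detected in these counts was not tested. Of the 8 mesangial markers 7 were at 10 or more in GL_M_11 and in GL_M_91, and their summed level was 8306 RPKM in GL_M_11 and 12608 in GL_M_91, around a median over all cells of 9651. GL_M_11 had 96 reads of Des, at 7.71 RPKM. Together the 10 genes made up 0.000380% (GL_M_91) to 0.435% (GL_M_29) of a cell's RPKM total, with a median of 0.192%.

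Few other filament genes reached 10 RPKM. Of 18 other intermediate filament genes, which included neurofilaments, Gfap, Prph and 9 keratins, 1 reached 10 RPKM in any cell, against 22.3% of all genes, and 8 were at 0 in all cells, against 57.1%. That gene was Krt10, a keratin of the epidermis, at 135.9 RPKM in GL_M_11 and 15.3 in GL_M_60. Among 9 small heat shock proteins and filament chaperones 3 reached 10 in some cell, against 22.3% of all genes and 52.0% of those above 0 in some cell, and none did so in 7 cells. The highest was Bag3, a cochaperone of the small heat shock protein Hspb8, at 485 RPKM in GL_M_60 and at most 0.457 elsewhere. Hspb8 also peaked in GL_M_60, at 152.7 RPKM, the cell with the highest Cryab, an observation made after the values were seen.

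Partners of the lamins were patchy. Of 14 genes of the nuclear envelope and of the complex that links it to the cytoskeleton, 11 reached 10 RPKM in some cell, against 22.3% of all genes and 52.0% of those above 0 in some cell. In at least 7 cells 2 did so, against 3.08% and 7.18%. Banf1, which ties chromatin to the envelope, reached 10 RPKM in 8 cells, with 102.3 as its median and 1046 RPKM in GL_M_29 as its highest value. Syne1, the spectrin-repeat protein nesprin-1 of the outer nuclear membrane, had a median of 35.8 RPKM and was at 0 in GL_M_29. Lbr, the lamin B receptor, was at 10 or more in 5 cells, and Sun1 and Emd in 1 cell each. Of 5 genes that process lamins by farnesylation and cleavage, 4 reached 10 in some cell, against the same 22.3% and 52.0%. Fnta, a farnesyltransferase subunit, was the highest, at 584 RPKM in GL_M_65 and at 10 or more in 5 cells.

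Of 11 kinases and phosphatases that act on filaments, 8 reached 10 RPKM in some cell, against 22.3% and 52.0%, and 5 did so in at least 7 cells, against 3.08% of all genes and 7.18% of those above 0 in some cell. Prkca, protein kinase C alpha, and Rock2, a serine/threonine kinase of the actin cytoskeleton, were at 10 or more in 12 cells each, with medians of 137.4 and 73.3 RPKM. Ppp1cb, a catalytic subunit of protein phosphatase 1, had a median of 197.6 and Rock1 of 106.3, in 10 and 9 cells. Aurkb and Plk1, mitotic kinases, were at 0 in all cells, as were 57.1% of all genes. Of 10 membrane and adhesion partners 6 reached 10 in some cell, against the same 22.3% and 52.0%, and Vcl, vinculin of focal adhesions, did so in 8 cells with a median of 17.1 RPKM.

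**Figure D4:**
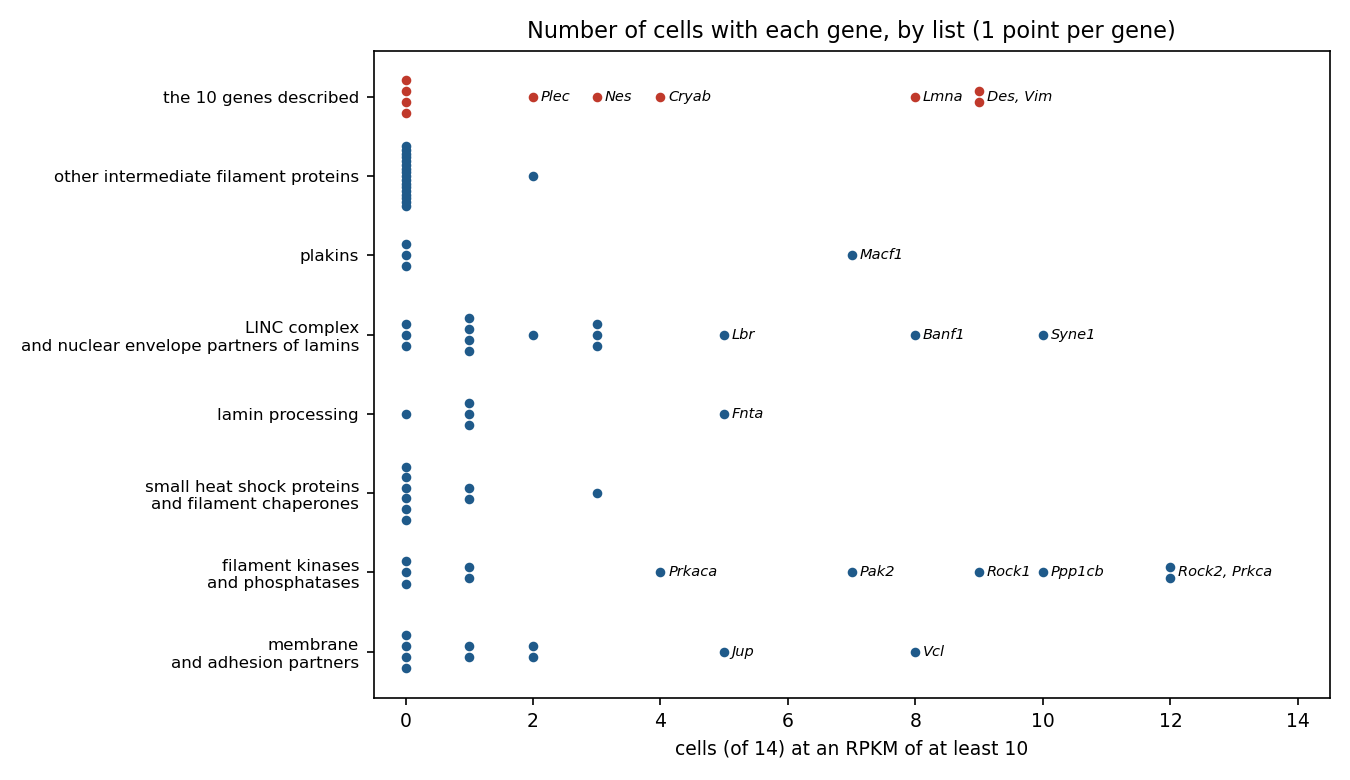
Each point is a gene, placed by the number of the 14 cells in which it was at an RPKM of at least 10, for the 10 genes described (top, red) and 7 related lists (blue). Prkca and Rock2 reach 12 cells, Des and Vim 9 and Lmna 8, while all but 1 of the other intermediate filament genes lie at 0.

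Genes whose levels followed those of Vim, Lmna and Des most closely were sought among 1083 other genes at 10 or more in at least 7 cells, by Pearson's r of log2(RPKM + 1) over 14 cells. For Vim they were Gm28370 (r = 0.89), the proteasome activator Psme4 (0.83) and Ifi27 (0.78). For Lmna they were Fkbp1a (0.84), an immunophilin, 2610507B11Rik (0.75) and Pcnp (0.73). For Des they were Efcab14 (0.84), the ribosomal protein gene Rpl31 (0.78) and Ndufa8 (0.71), a subunit of respiratory complex I. With 14 cells and so many candidates these are the ends of a ranking and no more, and the cells share 1 animal.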

How the data were processed

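RPKM values of 14 single cells were deposited by the authors as 1 table. The submitters' processing notes name TopHat2 2.0.12, HTSeq 0.6.1 and mm10. Annotation release, strand setting and filters: not given in the sources used here. Ensembl IDs were matched to GENCODE M21 symbols (GRCm38, the assembly of mm10), whose coordinates are printed, and promoter windows are from RefSeq. The 14 columns all matched a title.

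Read totals were recovered from the RPKM steps of 14953 genes with 1 transcript, where 84.0% to 89.7% of values below 50 reads came within 0.02 of a whole read. On simulated reads for these genes all 14 totals came back within 0.1%. Of the lengths tried, the mean over a gene's transcripts fit best: among genes with 2 transcripts 62.9% of low values were then whole, against 8.74% with merged exons and 20.6% with the longest transcript. Among genes with 7 to 50 transcripts the share was lower, at 50.5%, against 3.92% and 8.97%. Reads of Des, Nes and Plec used that mean in M21. For Vim, Lmna, Dst and Cryab the length came from the steps (1031, 1404, 8094 and 1186 bases), so their read numbers hold up to a common whole factor. cDNA was amplified and no molecular identifiers are mentioned, so the floor of 3 reads covers counting error only. Intervals are for the sampling of cells.

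Detected means an RPKM of at least 1, and 10 is the stricter limit. Levels for SDs and correlations are log2(RPKM + 1). Cells of 1 animal are not replicates, so no test was run. The genes and lists were chosen with earlier results of these data known. Named genes are all 10 genes, of each list up to 4 genes at 10 or more in at least 7 cells with the highest median (otherwise the highest gene), and the 3 genes most like Vim, Lmna and Des. Further list members named (Lbr, Sun1, Emd, Hspb8, Aurkb, Plk1 and plakins) were chosen after their values were seen. Other limits, scalings, pseudocounts and left-out cells were tried. Python 3.11.15, pandas 2.3.3 and SciPy 1.17.1 were used.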

Additional observations from a re-analysis of the deposited data

How the results depend on the processing

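The order of Lmna, Vim and Des by median RPKM held when values were rescaled to the same sum in every cell, by the mean of log2(RPKM + 1), and with the longest coding transcript as the length, an alternative chosen after seeing the data. Without GL_M_30 and GL_M_55, which both carry Lmna, it became Des, Vim and Lmna, with a rank correlation with the order over all cells of 0.938. The order thus depended on which cells were kept, and leaving out other cells with high Lmna was not tried for it. With the longest transcript as the length the highest Lmna was 448 and the highest Vim 1174 RPKM. The 3 genes at 10 or more in at least 7 cells became 7 when any value above 0 counted. Vim and Lmna reached 10 in the same number of cells at limits of 5 and 10. The correlation of Vim and Cryab, at -0.01, was 0.12 without GL_M_30 and GL_M_55, and that of Lmna and Cryab, at 0.26, was 0.62 as Spearman's rank correlation. Leaving out each cell in turn gave 0.093 (without GL_M_91) to 0.41 (without GL_M_6) for Vim and Des, -0.24 (without GL_M_11) to 0.017 (without GL_M_29) for Vim and Lmna, and -0.23 (without GL_M_47) to 0.22 (without GL_M_60) for Vim and Cryab. It gave 0.44 to 0.68 for Des and Lmna, 0.28 to 0.52 for Des and Cryab, and 0.13 to 0.41 for Lmna and Cryab. Of the genes most like Lmna, 0 of 3 were the same by Spearman's rank correlation. No paired analysis was possible because there is 1 group. With 1 mouse and 14 cells, values below about 3 reads cannot be told from 0.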
